A study of Homo sapiens with 8 samples.

Results

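Hypoxia and glycolysis genes are the set of 39 human genes, named by symbol, that comprises 24 genes of glucose uptake, glycolysis and lactate export and 15 genes of the hypoxia pathway. The platform's probe table named a feature for 35 of the 39, 21 glycolysis genes and 14 hypoxia genes, and all 35 passed the filter on low values, among 23854 genes tested. PFKFB4, SLC16A1, SLC16A3 and CA9 were not analysed here. Each gene is represented by its feature with the highest mean level, on the log2 scale of the deposited values.

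When oxygen falls, prolyl hydroxylases stop marking the HIF alpha subunits for breakdown, and the stabilised HIF factors bind short response elements and raise genes of glycolysis, pH control, mitophagy and collagen hydroxylation. Many tumour cells run glycolysis to lactate even where oxygen is present, and genes of glycolysis can be active in ordinary culture. The HIF alpha subunits are controlled mainly at the protein level, which an array of RNA does not measure.

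The cells were PC-3, a human prostate cancer line derived from a bone metastasis, so all groups share 1 genetic background. They were left untreated (control), or were given calcitriol (10 nM), the active form of vitamin D, TGF-β1 (5 ng/mL), a cytokine whose receptors activate SMAD proteins, or both agents together, for 24 h. The labels name no vehicle and no incubation time for the control cells and no oxygen setting for any group, and the medium contained serum. There were 2 arrays per group, stated to be independent experiments, on Clariom D arrays.

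Array medians lay between 4.33 and 4.35. Across genes, the correlation was 0.988 to 0.991 between replicates and 0.977 to 0.990 between groups (Pearson's r). The 7 markers listed for PC-3, among them the keratin KRT8, the adhesion protein EPCAM and the mesenchymal filament protein VIM, were above background on all arrays. So were 2 of 5 fibroblast (COL1A1 and COL1A2), 2 of 5 leukocyte (CD14 and CD68) and 2 of 5 endothelial markers (CDH5 and VWF). The mean log2 level was 8.66 for COL1A1 and 8.68 for CD68. LYZ, KDR and TEK were not above background on any array, and the other markers of these lists were on some. PTPRC, a leukocyte gene above background on 1 of 8 arrays, was lower with both agents (-0.78 ± 0.11, adjusted p = 0.0244), and its part in the results below was not tested. The androgen-dependent luminal genes KLK3, KLK2 and TMPRSS2 were above background on all 8 arrays. The gap between positive and negative control features in log2 units averaged 7.03 ± 0.015 for control arrays and 6.98 ± 0.064 after calcitriol, and 6.93 ± 0.025 after TGF-β1 and 6.74 ± 0.051 after both agents (SD, n = 2). Relative to control, the median protein-coding gene stood at -0.05 after calcitriol, -0.06 after TGF-β1 and -0.12 after both (log2 change). The part of this shift in the values below was not tested, and changes with arrays centred on protein-coding genes are given where they bear on a call. Fewer cells expressing a gene and less RNA per cell cannot be told apart in these samples.

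A gene is described as higher or lower, or as having risen or fallen, where limma's adjusted p over all 23854 genes was under 0.05. With both agents 3 of the 35 genes fell against control, and 0 rose: CA12 and NDRG1 of the hypoxia genes and PFKM of the glycolysis genes. In the same comparison 2.27% of all genes passed, 1.12% higher and 1.15% lower, and 2.66% of protein-coding genes passed. CA12 fell 1.72-fold, NDRG1 fell 1.67-fold and PFKM fell 1.48-fold. With either agent alone, 0 of the 35 genes passed against control.

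CA12 encodes carbonic anhydrase 12, a membrane enzyme that converts carbon dioxide and water to bicarbonate and protons and is a known HIF target. Its log2 level was 8.32 and 8.39 in the control arrays, 8.05 and 8.21 with calcitriol, 7.87 and 7.71 with TGF-β1, and 7.57 and 7.58 with both. The groups were ordered control, calcitriol, TGF-β1 and both from high to low, and no array of one group overlapped those of another. With both agents CA12 fell by 0.78 ± 0.11 on the log2 scale against control (SE, n = 2 per group, adjusted p = 0.0207). Neither single agent passed, with log2 changes of -0.22 ± 0.11 for calcitriol (adjusted p = 0.707) and -0.56 ± 0.11 for TGF-β1 (adjusted p = 0.09, and 0.0445 among protein-coding genes alone). The departure from adding up on the log2 scale was within its error for CA12 (95% interval -0.36 to 0.36, adjusted p = 0.999). With arrays centred on protein-coding genes the log2 change of CA12 was -0.69 (adjusted p = 0.0302).

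NDRG1 encodes a stress-responsive protein of differentiation and vesicle traffic that is induced by hypoxia. It stood at 8.85 and 8.72 in control, 8.98 and 8.78 with calcitriol, 8.14 and 8.11 with TGF-β1, and 8.00 and 8.10 with both (log2 levels). The 4 arrays with TGF-β1 lay below the 4 without it, and calcitriol overlapped control. Against control, NDRG1 fell by 0.74 ± 0.11 with both agents (adjusted p = 0.0267), and TGF-β1 alone did not pass (-0.67 ± 0.11, adjusted p = 0.0591). Against calcitriol alone, the combination lowered NDRG1 by a log2 change of -0.83 ± 0.11, or 1.77-fold (adjusted p = 0.0328). That was 1 of the 35 genes in a comparison in which 0.587% of all genes passed, 0.394% higher and 0.193% lower, and 0.825% of protein-coding genes. Among protein-coding genes alone NDRG1 also passed with TGF-β1 (adjusted p = 0.028).

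PFKM encodes the muscle type of phosphofructokinase, the enzyme of the committed step of glycolysis. Its log2 level was 8.48 and 8.65 in control, 8.43 and 8.39 with calcitriol, 8.28 and 8.34 with TGF-β1, and 8.05 and 7.96 with both. The combination arrays were below all others, and each single-agent group was below both controls. PFKM fell by 0.56 ± 0.10 with both agents (adjusted p = 0.0431), with -0.16 for calcitriol and -0.25 for TGF-β1, which did not pass. With arrays centred on protein-coding genes PFKM no longer passed (-0.47, adjusted p = 0.0681).

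The count of 3 was 0 without a filter on low values and 0 in fits of only the arrays compared. It was also 0 without either control array or either combination array, 1 without either TGF-β1 array (CA12) and 2 without either calcitriol array (CA12 and NDRG1). The call of NDRG1 against calcitriol was lost without any 1 of the 8 arrays, with adjusted p-values from 0.0507 to 0.2, and so was that of PFKM against control, with adjusted p-values from 0.0628 to 0.163.

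**Figure D1:**
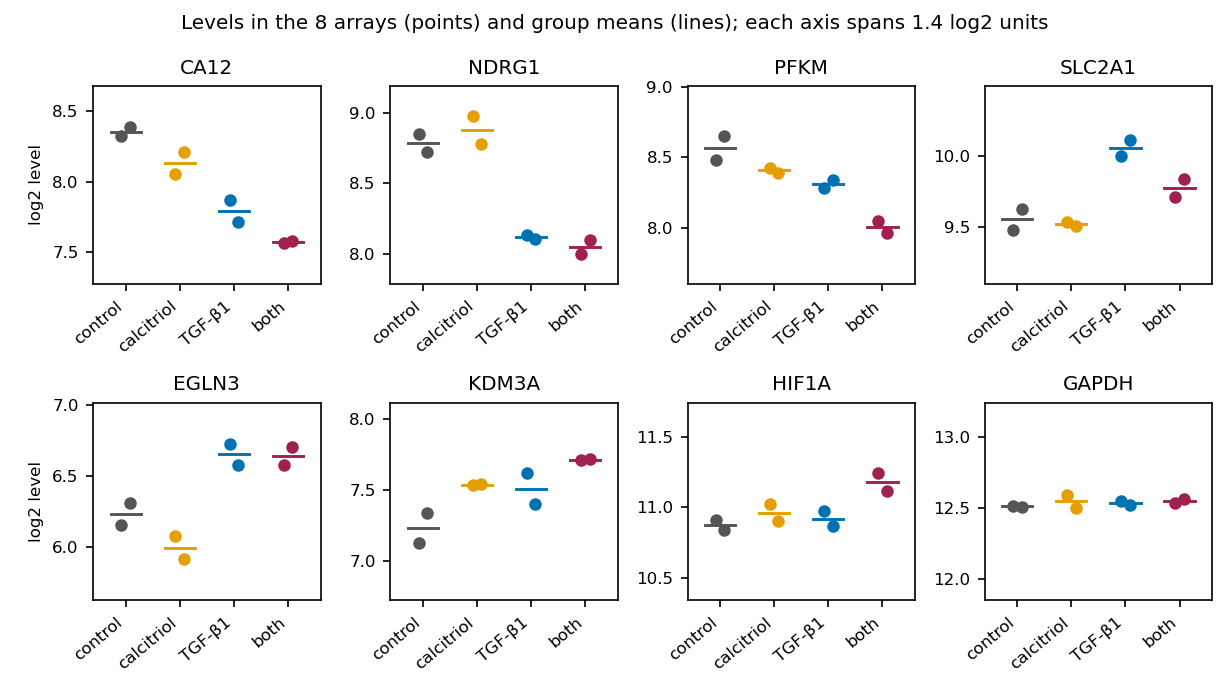
Log2 level (vertical axis) of 8 genes in each of the 8 arrays, as points, with group means as lines, over the groups control, calcitriol, TGF-β1 and both. CA12, NDRG1 and PFKM are lowest with both agents, and GAPDH stays between 12.50 and 12.59.

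Promoter letters are shown for CA12 and PFKM, which fell, and for LDHA and KDM3A, known hypoxia-induced genes that did not pass. Each is the 250 bases upstream of the most upstream start that RefSeq lists on GRCh38.p14, 5′ to 3′ on the gene's strand. Capitals mark the core of the hypoxia response element, ACGTG or GCGTG, on either strand, where CACGTG holds a match on both strands.

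CA12 (chr15:63381847-63382096, minus strand): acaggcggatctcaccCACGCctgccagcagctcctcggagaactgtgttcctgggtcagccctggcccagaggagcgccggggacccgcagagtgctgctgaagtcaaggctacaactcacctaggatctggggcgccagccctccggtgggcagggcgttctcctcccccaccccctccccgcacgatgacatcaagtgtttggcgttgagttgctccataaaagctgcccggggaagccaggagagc

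PFKM (chr12:48105103-48105352, plus strand): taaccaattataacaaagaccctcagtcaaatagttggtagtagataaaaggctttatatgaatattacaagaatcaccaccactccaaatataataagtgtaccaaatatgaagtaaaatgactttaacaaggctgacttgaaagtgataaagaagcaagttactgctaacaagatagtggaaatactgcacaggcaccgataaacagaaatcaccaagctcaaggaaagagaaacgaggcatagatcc

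LDHA (chr11:18394313-18394562, plus strand): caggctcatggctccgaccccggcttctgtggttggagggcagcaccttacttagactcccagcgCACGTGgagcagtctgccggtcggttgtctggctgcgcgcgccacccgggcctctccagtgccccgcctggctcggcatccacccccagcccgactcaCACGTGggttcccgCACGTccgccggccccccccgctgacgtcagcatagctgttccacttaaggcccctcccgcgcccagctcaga

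KDM3A (chr2:86441121-86441370, plus strand): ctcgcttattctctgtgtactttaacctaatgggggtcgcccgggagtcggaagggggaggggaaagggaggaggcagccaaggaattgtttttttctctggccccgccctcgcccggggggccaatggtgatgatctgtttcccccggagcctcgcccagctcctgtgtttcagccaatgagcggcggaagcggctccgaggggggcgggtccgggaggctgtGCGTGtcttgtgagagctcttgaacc

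The CA12 window held 1 match, starting 234 bases before the start site, and the KDM3A window held 1, starting 26 bases before it. The LDHA window held 5 matches, all of the ACGTG form, and this PFKM window held 0, while 1 of the 7 PFKM starts listed had a match. Of the 39 genes, 35 had at least 1 start listed, and these are not the same 35 as those tested. They include CA9, PFKFB4 and SLC16A3, and lack NDRG1, which fell, and BNIP3L, SLC2A3 and SLC16A1. Of the 35 with a start, 29 had a match at a start (82.9%), against 47.4% of 27305 genes. Some genes have many starts, and counted by start the shares were 38 of 63 (60.3%) and 43.2% of 35116. The ACGTG form was present at 36.5% of the starts of these genes and at 18.5% of all starts. BNIP3 had 6 matches in its window, and LDHB, PKM and EGLN3 had 0. The comparison genes were not limited to protein-coding ones and were not matched for base content, and both cores contain CG. A match is only these letters in the window.

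HIF1A, which encodes the HIF-1 alpha subunit, stood at 10.91 and 10.84 in control, 11.02 and 10.90 with calcitriol, 10.97 and 10.87 with TGF-β1, and 11.24 and 11.12 with both (log2 levels). The combination arrays were above the other 6, whose ranges overlapped. The difference from control did not pass (0.31 ± 0.11, adjusted p = 0.142). EPAS1, which encodes the HIF-2 alpha subunit, stood at 9.52 and 9.60 in control, 9.50 and 9.51 with calcitriol, 9.58 and 9.68 with TGF-β1, and 9.35 and 9.37 with both. Here the combination arrays were the lowest of the 8. Its difference did not pass either (-0.20 ± 0.10, adjusted p = 0.247), so the log2 changes of the HIF subunits had opposite signs and the difference between them was not tested.

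EGLN1 and EGLN3 encode prolyl hydroxylases that mark HIF for breakdown, and EGLN3 is itself a strong HIF target. EGLN1 stood at 9.01 and 9.0 in control, 9.04 and 9.02 with calcitriol, 9.05 and 8.93 with TGF-β1, and 9.18 and 9.09 with both (log2 levels). The combination arrays were the highest of the 8, and the TGF-β1 arrays overlapped control. The EGLN1 difference with both agents did not pass (0.13 ± 0.10, adjusted p = 0.471). EGLN3 stood at 6.15 and 6.31 in control, 6.07 and 5.91 with calcitriol, 6.73 and 6.58 with TGF-β1, and 6.58 and 6.71 with both (log2 levels). All 4 arrays with TGF-β1 lay above the 4 without it. None of its comparisons passed, with 0.43 ± 0.12 for TGF-β1 (adjusted p = 0.21), 0.41 ± 0.12 for both (adjusted p = 0.101) and 0.65 ± 0.12 for both against calcitriol (adjusted p = 0.0793). The last passed among protein-coding genes alone (adjusted p = 0.0419). Another EGLN3 feature, above background on 6 of 8 arrays, had the opposite sign with TGF-β1 (-0.44), -0.04 with both, and the same sign for both against calcitriol (0.47).

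Among the other hypoxia targets, KDM3A, a histone H3 lysine demethylase, had the largest positive log2 difference. Its log2 level was 7.12 and 7.33 in control, 7.53 and 7.54 with calcitriol, 7.62 and 7.40 with TGF-β1, and 7.71 in both combination arrays. Every treated array lay above both controls. The change was 0.49 ± 0.12 with both agents (adjusted p = 0.0743), 0.31 ± 0.12 with calcitriol (adjusted p = 0.655) and 0.28 ± 0.12 with TGF-β1 (adjusted p = 0.393). KDM3A passed with both agents among protein-coding genes alone (adjusted p = 0.0488).

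The remaining hypoxia genes showed smaller differences, none of which passed. BNIP3 and BNIP3L encode mitophagy receptors, and their log2 changes with both agents were -0.09 and 0.18. P4HA1 and P4HA2 encode catalytic subunits of the collagen prolyl hydroxylase, with 0.18 and 0.06. DDIT4, an inhibitor of mTORC1, had -0.23, and ANKRD37, an ankyrin repeat protein and HIF target, had 0.06. ADM, which encodes the vasodilator peptide adrenomedullin, ranged from 7.04 to 7.41, and both ends of that range were combination arrays. As a group the 14 hypoxia genes had a median log2 change of 0.06 with both agents, with 9 positive and 5 negative, beside -0.06 over all genes tested and -0.12 over protein-coding genes. Hypoxia genes with both combination arrays above both controls numbered 6 of 14, and with both below, 5 of 14. The corresponding shares were 20.6% and 33.7% of all genes, and 14.2% and 43.6% of protein-coding genes.

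**Figure D2:**
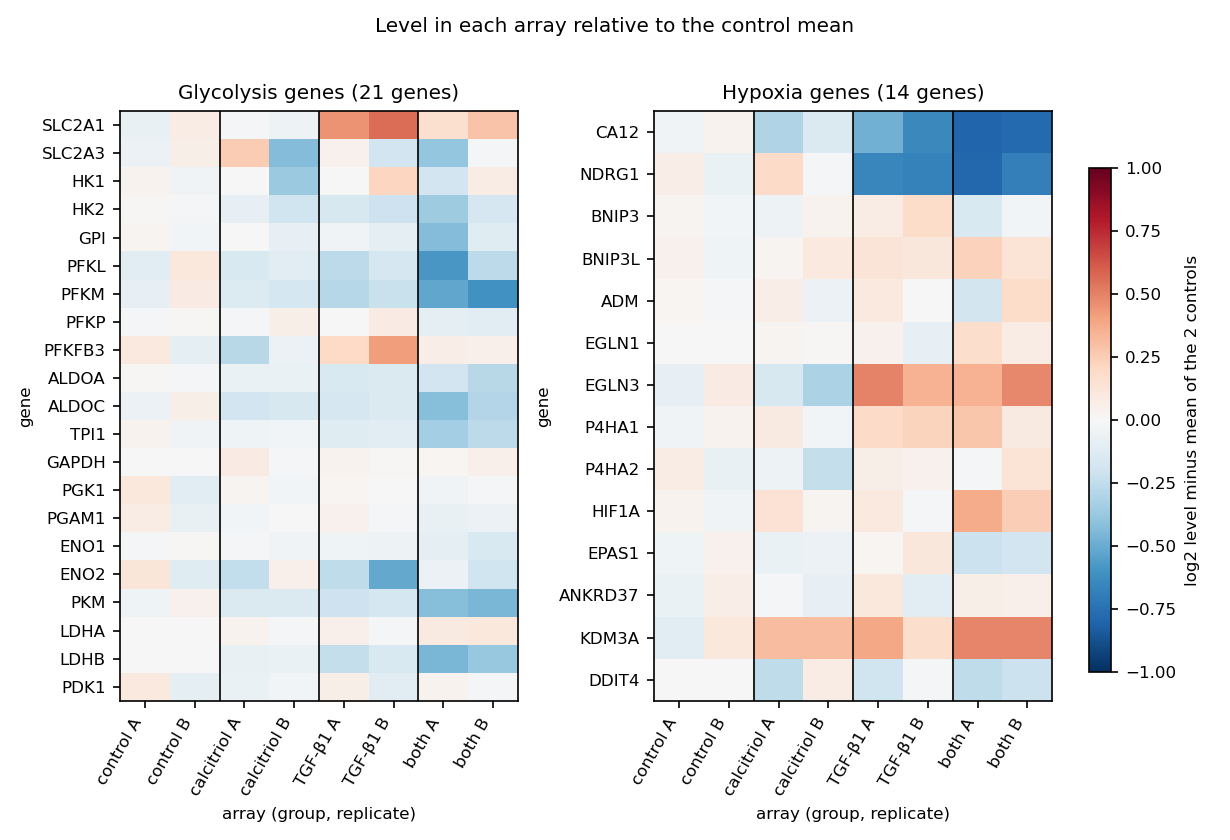
Log2 level of each gene (rows) in each array (columns) minus the mean of the 2 control arrays, blue for lower and red for higher, for 21 glycolysis and 14 hypoxia genes. CA12 and NDRG1 are the darkest rows in the combination arrays, and many glycolysis rows are pale blue there.

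Glucose entry was represented by SLC2A1 and SLC2A3, which encode the transporters GLUT1 and GLUT3. SLC2A1 stood at 9.48 and 9.63 in control, 9.53 and 9.50 with calcitriol, 10.00 and 10.11 with TGF-β1, and 9.71 and 9.84 with both (log2 levels). The TGF-β1 arrays were the highest, the combination arrays came next, and calcitriol lay within the range of control. The TGF-β1 difference of 0.50 ± 0.11, or 1.42-fold, did not pass (adjusted p = 0.117), nor did that of both agents (0.23 ± 0.11, adjusted p = 0.252). The TGF-β1 difference passed in limma with an intensity trend and robust spread (adjusted p = 0.00053), where 762 of all genes passed. It also passed after cyclic loess among protein-coding genes alone, a setting chosen after seeing the data (0.54, adjusted p = 0.0454). The combination was at -0.28 ± 0.11 against TGF-β1 alone (adjusted p = 0.537). SLC2A3 was above background on 7 of 8 arrays, and its replicates differed by 0.69 with calcitriol, the largest replicate gap of any of the 35 genes.

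In the upper steps of glycolysis, HK1 and HK2 encode hexokinases. HK1 stood at 8.68 and 8.62 in control, 8.64 and 8.28 with calcitriol, 8.65 and 8.86 with TGF-β1, and 8.45 and 8.72 with both (log2 levels). Each of its treated groups overlapped control. The log2 changes with both agents were -0.06 ± 0.16 for HK1 and -0.26 ± 0.11 for HK2 (adjusted p = 0.842 and 0.191). GPI, the phosphoglucose isomerase, had -0.28 (adjusted p = 0.228). PFKL, the liver type of phosphofructokinase, stood at 8.63 and 8.85 in control, 8.59 and 8.63 with calcitriol, 8.48 and 8.57 with TGF-β1, and 8.16 and 8.48 with both. All its treated arrays lay below both controls, although calcitriol B (8.63409) and control A (8.63435) were nearly equal. The combination overlapped TGF-β1 only narrowly, with combination B at 8.4799 and TGF-β1 A at 8.47873. The difference from control with both agents did not pass (-0.42 ± 0.14, adjusted p = 0.126). PFKP, the platelet type, ranged from 9.52 to 9.72 over all arrays (-0.11 with both, adjusted p = 0.531). PFKFB3 makes fructose 2,6-bisphosphate, an activator of phosphofructokinase. It stood at 6.15 and 5.96 in control, 5.78 and 6.0 with calcitriol, 6.26 and 6.48 with TGF-β1, and 6.13 and 6.11 with both (log2 levels), highest with TGF-β1 (0.31 ± 0.13, adjusted p = 0.385).

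ALDOA and ALDOC encode aldolases. The change of ALDOA with both agents was -0.23 (adjusted p = 0.188). ALDOC stood at 8.23 and 8.34 in control, 8.09 and 8.13 with calcitriol, 8.12 and 8.14 with TGF-β1, and 7.86 and 8.00 with both. The single-agent arrays lay between those of control and of the combination (-0.36 ± 0.10, adjusted p = 0.0997). TPI1, the triosephosphate isomerase, had -0.30 with both agents (adjusted p = 0.122).

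In the lower steps, GAPDH, which encodes the dehydrogenase often used as a reference gene, ranged from 12.50 to 12.59. The log2 levels were 12.52 and 12.51 in control, 12.59 and 12.50 with calcitriol, 12.55 and 12.52 with TGF-β1, and 12.54 and 12.57 with both. Calcitriol overlapped control, and the TGF-β1 and combination arrays lay above both controls by less than 0.1. The GAPDH log2 change with both agents was 0.04 ± 0.09 (95% interval -0.18 to 0.26). PGK1 and PGAM1, the kinase and mutase of the next steps, had -0.03 and -0.07 with both agents. ENO1, the ubiquitous enolase, had -0.12. ENO2, the neuronal enolase, stood at 6.21 and 5.97 in control, 5.84 and 6.14 with calcitriol, 5.83 and 5.57 with TGF-β1, and 6.03 and 5.89 with both (log2 levels). Its lowest values were with TGF-β1 (-0.38 ± 0.15, adjusted p = 0.363), and the other groups overlapped. GAPDH, PGK1, PGAM1, ENO1, TPI1, ALDOA and LDHA have processed pseudogenes, which the array may not separate from the parent gene. A further feature named PGAM1 and one named ENO1, neither with an Entrez identifier in the probe table, showed -0.13 each with both agents.

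PKM, the pyruvate kinase that produces pyruvate, stood at 10.93 and 11.01 in control, 10.82 and 10.83 with calcitriol, 10.77 and 10.79 with TGF-β1, and 10.54 and 10.51 with both. The 4 groups did not overlap and were in the same order as for CA12. The difference with both agents was -0.44 ± 0.09 (adjusted p = 0.0568), which passed among protein-coding genes alone (adjusted p = 0.0323).

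LDHA and LDHB encode the lactate dehydrogenase subunits, of which the first favours formation of lactate. LDHA stood at 12.23 and 12.24 in control, 12.27 and 12.21 with calcitriol, 12.28 and 12.22 with TGF-β1, and 12.33 and 12.34 with both (0.10 ± 0.09, adjusted p = 0.56). The combination arrays were the highest for LDHA, and calcitriol and TGF-β1 overlapped control. LDHB stood at 11.45 and 11.44 in control, 11.37 in both calcitriol arrays, 11.20 and 11.29 with TGF-β1, and 10.99 and 11.06 with both (-0.42 ± 0.10, adjusted p = 0.0658). The LDHB groups followed the order of CA12 and PKM without overlap, while LDHA varied by 0.128 over all arrays. LDHB passed with both agents among protein-coding genes alone (adjusted p = 0.0394). PDK1, the kinase that restrains pyruvate entry to mitochondrial oxidation, ranged from 9.02 to 9.24 (0.01 with both agents).

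**Figure D3:**
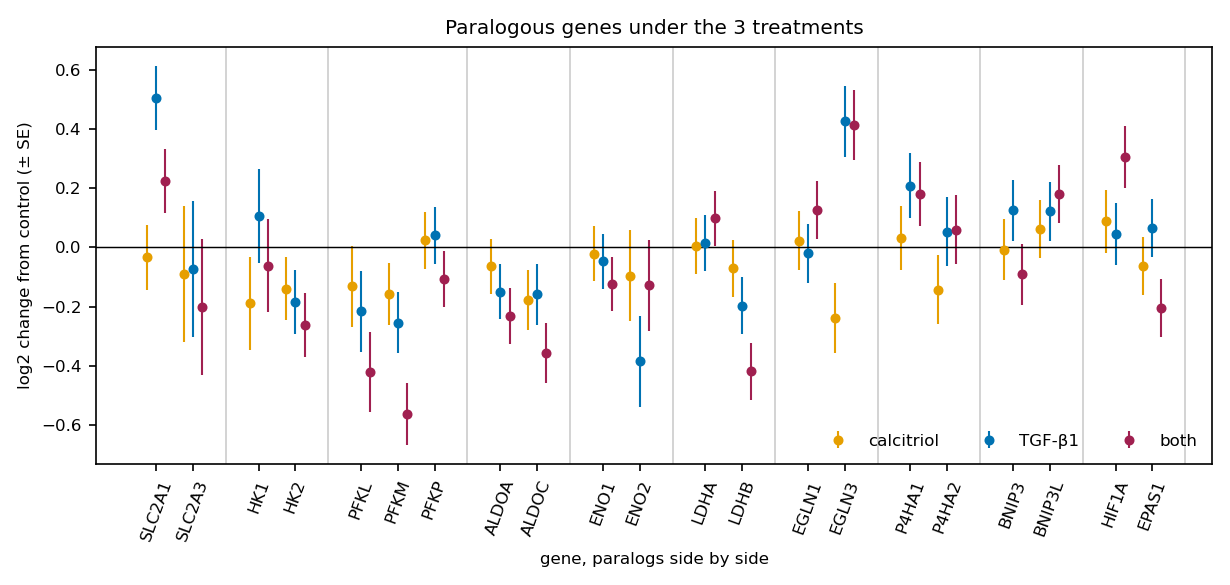
Log2 change from control (vertical axis, ± SE, n = 2 per group) of paralogous genes side by side with calcitriol, TGF-β1 and both agents. PFKM and PFKL lie below PFKP and LDHB lies below LDHA with both agents, and these differences between paralogs were not tested.

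The 21 glycolysis genes had a median log2 change of -0.06 after calcitriol, -0.06 after TGF-β1 and -0.13 after both agents. These medians stand beside -0.05, -0.06 and -0.12 over protein-coding genes. The glycolysis median was -0.11 for the combination against calcitriol and -0.15 for the combination against TGF-β1, beside -0.06 in each over protein-coding genes. By mean level, the protein-coding median for both agents against control was between -0.12 and -0.11 in each of 4 bands. The 9 glycolysis genes with a mean level from 8 to 10 had a median of -0.28 in that comparison, and the 8 at 10 and over had -0.09. The 2 under 6 had a median of -0.16, and the 2 from 6 to 8 had -0.10. The combination arrays A and B lay at a median of -0.19 and -0.12 from the control mean over the glycolysis genes, and at -0.12 and -0.10 over protein-coding genes. With both agents 11 of the 21 had both arrays below both controls, beside 33.7% of all genes and 43.6% of protein-coding genes. Those above both controls were SLC2A1, GAPDH and LDHA, 3 of 21, beside 20.6% of all genes and 14.2% of protein-coding genes.

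Group means were highest in control and lowest with both agents in 11 of 21 glycolysis genes (52.4%), against 21.2% of all genes and 27.6% of protein-coding genes: SLC2A3, HK2, GPI, PFKL, PFKM, ALDOA, ALDOC, TPI1, ENO1, PKM and LDHB. The reverse order held for GAPDH and LDHA, against 12.4% of all genes and 7.23% of protein-coding genes. Among the hypoxia genes CA12 and DDIT4 had the first order, and BNIP3L, HIF1A and KDM3A the reverse. When arrays were centred on protein-coding genes, HK1, PGK1 and PGAM1 changed sign with both agents, and 13 of 21 glycolysis genes were then negative and 8 positive (median -0.04). The hypoxia genes then had 9 positive and 5 negative (median 0.15).

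**Figure D4:**
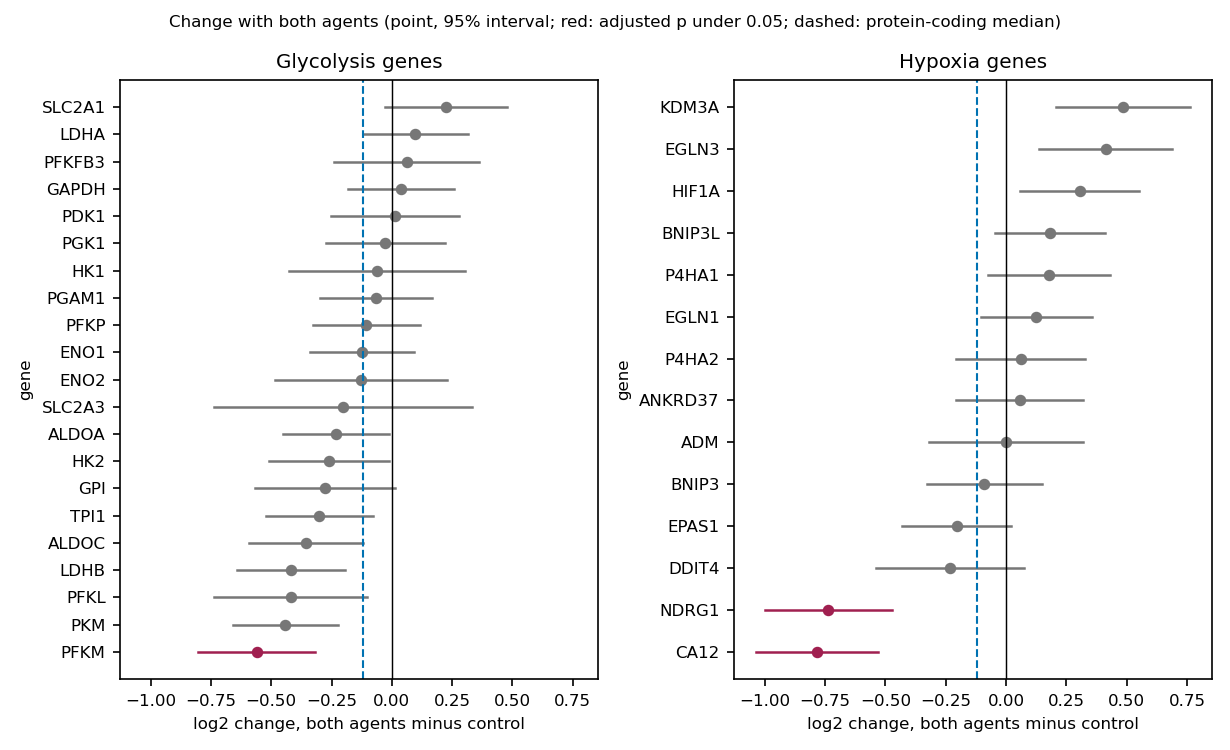
Log2 change with both agents minus control (horizontal axis) for each gene, with its 95% interval (limma, n = 2 per group), zero as the solid line and the protein-coding median of -0.12 as the dashed line. PFKM, CA12 and NDRG1, in red, had an adjusted p under 0.05.

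The first single-agent comparison asks what calcitriol does to these genes. Of the 35, 0 passed in limma, in a comparison in which 0.00838% of all genes and 0.0135% of protein-coding genes passed. At an unadjusted p under 0.05 there was 1, KDM3A, against 7.34% of all genes and 6.71% of protein-coding genes. Both calcitriol arrays lay above both controls for 2 of the 35 genes and below them for 10. The corresponding shares were 13.5% and 23.2% of all genes, and 10% and 28.3% of protein-coding genes. The log2 changes ran from -0.24 (EGLN3) to 0.31 (KDM3A). Of the glycolysis genes 18 were negative and 3 positive, where 64.2% of protein-coding genes were negative. With arrays centred on protein-coding genes the glycolysis split was 11 negative and 10 positive. The lowest uncentred value was that of HK1 (-0.19), whose calcitriol arrays differed from each other (8.64 and 8.28).

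With TGF-β1 alone, 0 of the 35 genes passed in limma, where 0.608% of all genes passed, 0.344% higher and 0.264% lower, and 0.872% of protein-coding genes. At an unadjusted p under 0.05 there were 8, against 12.6% of all genes and 14.3% of protein-coding genes: SLC2A1, PFKM, PFKFB3, ENO2, CA12, NDRG1, EGLN3 and KDM3A. The log2 changes ran from -0.67 (NDRG1) to 0.50 (SLC2A1). Both TGF-β1 arrays lay above both controls for 8 of the 35 genes, 5 of them hypoxia genes, and below them for 14, of which 11 were glycolysis genes. Of all genes 17.1% were above and 26.1% below, and of protein-coding genes 14.7% and 32%. The 5 hypoxia genes above were BNIP3, BNIP3L, EGLN3, P4HA1 and KDM3A, and the 3 below were CA12, NDRG1 and DDIT4. With both agents 13 of the 35 had an unadjusted p under 0.05, against 23.8% of all genes and 25.5% of protein-coding genes.

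The combination against calcitriol asks what TGF-β1 adds. Beside NDRG1, which passed, 7 further genes had an unadjusted p under 0.05, which makes 8 of 35 against 14.7% of all genes and 15.7% of protein-coding genes. SLC2A1 (0.26 ± 0.11) and EGLN3 (0.65 ± 0.12) were the positive ones, and PFKM (-0.40 ± 0.10), TPI1 (-0.27), PKM (-0.30 ± 0.09), LDHB (-0.35 ± 0.10) and CA12 (-0.56 ± 0.11) the negative ones. Arrays of the combination lay above both calcitriol arrays for 11 of the 35 and below for 14. These stand beside 20.6% and 27.8% of all genes, and 16.5% and 34.6% of protein-coding genes.

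The combination against TGF-β1 asks what calcitriol adds. Of the 35, 0 passed in limma, as did 0 of all 23854 genes (0%), and 5 of the 35 had an unadjusted p under 0.05, against 9.26% of all genes and 8.45% of protein-coding genes. These were SLC2A1, PFKM (-0.31 ± 0.10), PKM (-0.25 ± 0.09), EPAS1 (-0.27 ± 0.10) and HIF1A (0.26 ± 0.11), each with non-overlapping arrays and an adjusted p between 0.526 and 0.537. Combination arrays lay above both TGF-β1 arrays for 6 of the 35 genes and below for 18, of which 13 were glycolysis genes. These stand beside 18.5% and 25.7% of all genes, and 13.3% and 31.6% of protein-coding genes. The interaction, which is zero where log2 effects add up, passed for 0 of the 35 in limma, and 0 had an unadjusted p under 0.05, against 5.15% of all genes and 4.22% of protein-coding genes. Its lowest adjusted p among them was 0.972, for SLC2A1 (-0.25 ± 0.15) and ENO2 (0.35 ± 0.22). With interaction SEs of this size the data do not show that the effects add up exactly.

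Genes around the set were counted in the same fit. Of 23 other hypoxia-inducible genes tested, 3 rose with both agents and 0 fell: VEGFA (0.69 ± 0.10, adjusted p = 0.0219), which encodes the angiogenic factor, BHLHE40 (0.81 ± 0.13, adjusted p = 0.0286), a transcriptional repressor, and TMEM45A (0.69 ± 0.11, adjusted p = 0.0306). Of all genes 1.12% were higher and 1.15% lower in that comparison, and 2.66% of protein-coding genes passed. VEGFA stood at 9.73 and 9.76 in control, 9.78 and 9.87 with calcitriol, 10.54 in both TGF-β1 arrays, and 10.50 and 10.39 with both (log2 levels). BHLHE40 stood at 9.16 and 8.83 in control, 9.18 and 9.09 with calcitriol, 9.82 and 9.74 with TGF-β1, and 9.79 and 9.82 with both (log2 levels). TMEM45A stood at 8.50 and 8.32, 8.50 and 8.53, 9.07 and 9.03, and 9.17 and 9.02 in the same order. In all 3 genes the 4 arrays with TGF-β1 lay above the 4 without, the opposite order to NDRG1. With TGF-β1 alone VEGFA rose (0.79 ± 0.10, adjusted p = 0.0237), and BHLHE40 and TMEM45A did not pass (adjusted p = 0.0505 and 0.061). For the combination against calcitriol, 1 of the 23 was higher in limma (adjusted p = 0.0497) and 0 were lower. In that comparison 0.394% of all genes were higher and 0.193% lower. The median of these 23 was 0.03 with both agents against control.

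Of 13 HIF pathway regulators tested, among them the partner subunit ARNT and the ligase component VHL, 0 passed in any of the 6 comparisons in limma, with 3 at an unadjusted p under 0.05 with both agents, beside 23.8% of all genes. Further lists held 23 other glucose-entry and glycolytic genes, 12 genes of pyruvate entry to mitochondrial oxidation and its control, and 8 pentose phosphate genes. Among the 12 were the kinases PDK2, PDK3 and PDK4, which restrain that entry. Of the genes on these 3 lists, 0 passed in any comparison in limma. At an unadjusted p under 0.05 with both agents there were 2 of the 23, 2 of the 12 and 5 of the 8. These stand beside 23.8% of all genes and 25.5% of protein-coding genes, a share that the first 2 lists did not reach. The 8 pentose phosphate genes had a median log2 change of -0.30 with both, 7 of them negative, beside a median of -0.12 and 69.1% negative over protein-coding genes. The 11 gluconeogenic genes tested had a median of -0.27 with both agents, 9 of them negative, and 6 had an unadjusted p under 0.05. Of these 11 genes 1 fell, FBP1, the fructose-1,6-bisphosphatase that opposes phosphofructokinase. Of all genes 0.264% were lower with TGF-β1, 1.15% with both agents and 0.193% with both against calcitriol. FBP1 fell by 0.83 with TGF-β1 (adjusted p = 0.0225) and by 0.89 with both agents (adjusted p = 0.011), and had a log2 change of -1.01 ± 0.10 against calcitriol (adjusted p = 0.0115). It stood at 8.45 and 8.31 in control, 8.52 and 8.49 with calcitriol, 7.58 and 7.51 with TGF-β1, and 7.50 and 7.49 with both. Like NDRG1, it was low in the 4 arrays with TGF-β1 and not in those with calcitriol alone.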

How the data were processed

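RNA of PC-3 cells was measured on 8 Clariom D arrays, 2 per group, grouped by sample title. The authors deposited a log2 value for each of 138745 features on every array. Per the submitters' processing notes, which give no versions, RMA, oligo and limma were used. The base of the log2 scale is taken from the usual RMA output, and the genome build is not given in the sources used here.

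Gene symbols came from the platform's probe table, with exactly 1 for 36176 features. The 50th percentile of all values, 4.34, was the filter, to be exceeded on at least 2 arrays, and the feature of highest mean was used per gene. This left 23854 genes, of which 14793 are protein-coding. limma 3.58.1 in R 4.3.3 was fitted to all 8 arrays with 1 mean per group, 4 residual degrees of freedom, empirical Bayes moderation and 6 two-sided contrasts, with Benjamini-Hochberg adjustment over all genes. A value was above background where it exceeded 95% of an array's 612 negative control features. With 2 arrays per group an exact permutation test cannot reach p = 0.05, and the number of arrays limits the precision. The pipeline was tested on simulated data.

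The members and lists were chosen with earlier results of these data known. Described in full were members that passed in any contrast, the 3 largest changes per gene group and treatment, and HIF1A, EPAS1, EGLN1, EGLN3, LDHA and GAPDH. Other values among the members are given for completeness, and other lists are given by counts and by up to 6 called genes. Of the other lists, 1 leukocyte marker (PTPRC) and 1 epithelial marker (KRT7) passed with both agents, lower and higher in that order, and 0 fibroblast and 0 endothelial markers did. Promoter sequences are from RefSeq (GRCh38.p14) and were matched by symbol.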

Additional observations from a re-analysis of the deposited data

How the results depend on the processing

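The counts of genes that passed among the 35 depended on the setting, and no gene that passed changed sign under any alternative run. For both agents against control the count was 3, and it was 6 among protein-coding genes only, 11 with an intensity trend and robust spread, 0 without a filter on low values and 0 with only the arrays compared. For the combination against calcitriol it was 1, and in the same order 2, 8, 0 and 0. For TGF-β1 against control it was 0, and it was 1 with a filter at the negative controls, 2 among protein-coding genes only and 4 with the intensity trend. Those 4 were SLC2A1, higher, and CA12, NDRG1 and LDHB, lower. For both agents, PFKM, PFKL, ALDOA, ALDOC, TPI1, PKM, LDHB, CA12 and NDRG1 were lower with the trend, and HIF1A and KDM3A were higher. Cyclic loess with protein-coding genes only, chosen after seeing the data, gave 2 for each of TGF-β1 against control and the combination against calcitriol. For both agents against control it gave 4, CA12 and NDRG1 lower and EGLN3 and KDM3A higher, without PFKM. With the replicate block, the letters A and B, the counts were 1 (CA12) for both agents against control and 0 against calcitriol. The letters are not stated to mark shared experiments, and deviations of arrays with the same letter correlated at -0.08 to 0.08, so the main fit has no block. Leaving out 1 array gave 0 to 2 for both agents against control and 0 to 0 in the other 5 contrasts. Over all genes the count for both agents against control was 542, and it was 931 among protein-coding genes only, 3072 with the intensity trend, 134 without a filter, 14 with only the arrays compared and 213 with the block. For TGF-β1 the count of 145 became 242, 762, 38, 12 and 43 in that order, and for the combination against calcitriol 140 became 189, 1059, 56, 2 and 66. The cause of these differences was not tested. Under centring on protein-coding genes 3 of 35 changes with both agents changed sign (HK1, PGK1 and PGAM1), at most 0.0659 in size.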
